A study of Oryza sativa with 6 samples.

Results

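Abscisic acid (ABA) is the plant hormone of water shortage and seed dormancy. It is cut from carotenoids by 9-cis-epoxycarotenoid dioxygenases (NCED) and removed mainly by ABA 8′-hydroxylases, which are cytochrome P450 enzymes. In a cell, ABA bound to PYL/RCAR receptors blocks clade A protein phosphatases 2C (PP2C), which frees SnRK2 kinases to activate bZIP transcription factors, and these switch on response genes such as dehydrins. In roots the hormone is known for its part in growth under dry or saline conditions.

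A set of 8 rice genes for ABA breakdown, synthesis, signalling and response was chosen by locus, and all 8 were among the 36960 features of the count table and the 25531 that were tested. They were the hydroxylase genes OsABA8OX1 and OsABA8OX2, the synthesis gene OsNCED1, the phosphatase gene OsPP2C30, the transcription factor genes BZIP23 and BZIP46, the dehydrin gene LIP9, and OsJRL, the salt-induced lectin gene also known as SALT. RNA was sequenced from the roots of 3 samples of the line mads61-3, a mutant of the MADS-box transcription factor gene OsMADS61, and of 3 wild-type (WT) samples. Both groups grew without a fungal partner, 5 seedlings to a tank of 8 L, in nutrient solution with 2.5 mM nitrate. The comparison bears on what OsMADS61 does in such roots. The labels name 1 mutant line, do not describe its allele, and give no age.

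Total read counts ran from 27060698 to 34179150 in mads61-3 libraries and from 24145708 to 27338562 in WT libraries, and 3 counts stood for 0.0875 to 0.131 CPM (read counts scaled to library size). OsMADS61 itself (Os04g0461300, chromosome 4) stood at 6.24, 2.41 and 4.63 CPM in mads61-3 replicates 1 to 3, against 552 and 573 CPM in WT replicates 1 and 2 and 2.38 CPM in the library labelled WT replicate 3. That library thus went against its label for this gene, and every direction below counts it as WT. Of the marker lists, 4 of 4 root genes were found in every library, with summed FPKM (fragments scaled to gene length and depth) of 1941 to 3858 in mads61-3 and 1113 to 1583 in WT. The silicon transporter genes LSI1 and LSI2 made up most of that sum except in the library labelled WT replicate 3, where RCc3 did, with means of 1849 and 1129 FPKM in mads61-3, against 624 and 317 FPKM in WT (log2 1.45 and 1.70). The root-specific gene RCc3 lay the other way, from 61.0 to 96.3 FPKM in mads61-3 and from 27.3 to 1081 in WT (log2 -2.56), and OsSCR1 had a log2 fold change of -0.16. EdgeR called 0 of the 4 root genes, with 3 at an unadjusted p under 0.05, and DESeq2 called LSI1 and LSI2 (adjusted p of 0.0366 and 0.047). For scale here and for the leaf genes below, edgeR called 1.25% of all features, with 16.5% at an unadjusted p under 0.05, and DESeq2 called 8.48%. The summed FPKM of 4 leaf genes was 11.4, 155 and 51.4 in mads61-3 replicates 1 to 3, against 0.695, 15.9 and 4.41 in WT, where RbcS3 and CAB2R were at 0 in the library labelled WT replicate 3. All 4 leaf genes had positive log2 fold changes. Of these, edgeR called 0, with 2 at an unadjusted p under 0.05, and DESeq2 called RBCS (adjusted p = 0.000828). RBCS and RbcS3 (log2 3.87 and 5.06) were higher in every mads61-3 library than in every WT library. The summed FPKM of 4 seed genes was 5.651 to 8.23 in mads61-3 and 4.04 to 6.75 in WT, with GluB1 at 0 in every library. The part of these differences in the results below was not tested.

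Mutant roots held far less OsABA8OX1 transcript than WT roots, and it was the 1 gene of the 8 that passed the test. Its level was 11.5-fold lower in the fit. BZIP23 stood lower and BZIP46 higher in every mads61-3 library than in every WT library, but neither passed. For OsABA8OX2, OsNCED1, OsPP2C30, LIP9 and OsJRL the groups overlapped. In edgeR's quasi-likelihood test, 0 of the 8 rose and 1 fell at an adjusted p under 0.05, where 1.25% of all tested features were called, 0.325% higher and 0.924% lower. By the unadjusted p, also at 0.05, 1 of the 8 was higher and 2 were lower, where 16.5% of all features passed, 7.86% higher and 8.68% lower. In CPM the groups did not overlap for 1 higher and 2 lower genes of the 8, against 22.7% of all features, 11.4% higher and 11.3% lower. The median log2 fold change of the 8 genes was -0.37 and that of all features -0.04. In these bulk samples, fewer cells of a type and less RNA per cell cannot be told apart.

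**Figure D1:**
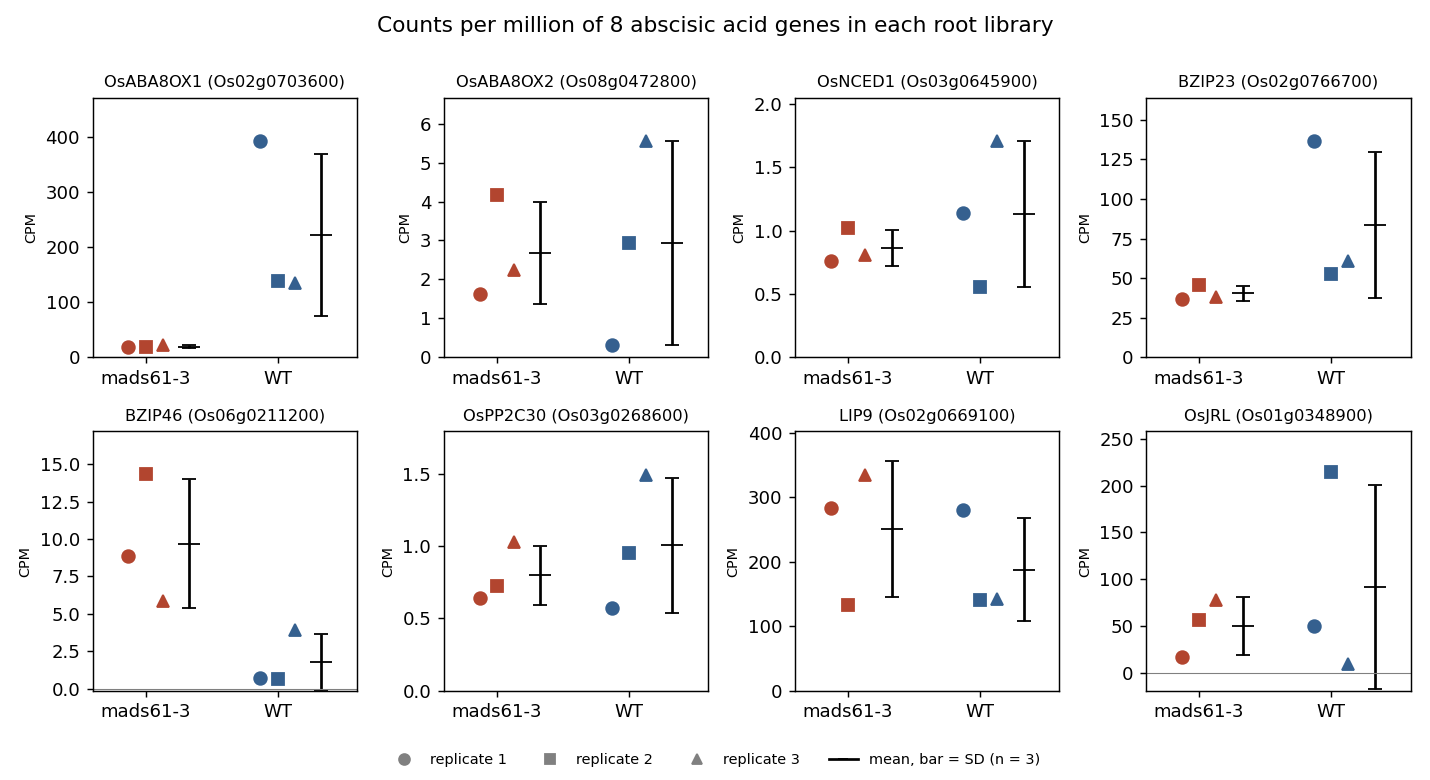
CPM of the 8 genes (vertical axis, a scale for each gene) in every library, with mads61-3 to the left of WT, symbols for replicates, and the mean with its SD (n = 3). OsABA8OX1 lies between 17.7 and 22.0 CPM in mads61-3 and between 135 and 392 in WT. The triangle in each WT column is the library labelled WT replicate 3.

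The enzyme encoded by OsABA8OX1 (Os02g0703600, chromosome 2) starts the main route of ABA breakdown. Read counts were 618, 535 and 599 in mads61-3 replicates 1 to 3, against 8961, 3503 and 3782 in WT replicates 1 to 3. In CPM these were 18.02, 17.7 and 22.0 in mads61-3, against 392, 139 and 135 in WT. The lowest WT library was 6.12 times the highest mutant one, the mutant libraries lay close together, and WT replicate 1 stood far above the other WT libraries. Group means were 19.2 ± 2.40 CPM in mads61-3 and 222 ± 148 CPM in WT (SD, n = 3 each). The fitted log2 fold change was -3.53 (SE 0.49, edgeR, adjusted p = 0.0316), with DESeq2's adjusted p at 1.3e-11 and a range of 1.3e-11 to 0.172 over all alternatives. The call was lost in edgeR without mads61-3 replicate 1, 2 or 3 (adjusted p of 0.169, 0.104 and 0.172) and with WT replicate 2 left out (0.0537), while the log2 fold change stayed between -3.79 and -2.83 with any 1 library left out, the smallest change being that without WT replicate 1. With the library labelled WT replicate 3 left out it was -3.79 (edgeR, adjusted p = 0.0189). That library, whose OsMADS61 level was like that of the mutants, held OsABA8OX1 at 135 CPM, next to the 139 CPM of WT replicate 2.

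OsABA8OX2 (Os08g0472800, chromosome 8) encodes a second ABA 8′-hydroxylase. It was rare, with 1.63, 4.16 and 2.24 CPM in mads61-3, against 0.306, 2.93 and 5.55 CPM in WT. Its counts were 56, 126 and 61 in mads61-3, against 7, 74 and 156 in WT. WT replicate 1, highest for OsABA8OX1, was lowest for OsABA8OX2, and the WT libraries spanned 18.1-fold, a ratio that 4.1% of tested features reached in WT. The log2 fold change of -0.13 (SE 0.88, edgeR, adjusted p = 0.958) had no stable sign, being 0.72 without the library labelled WT replicate 3 and 0.12 without mads61-3 replicate 1. Per length, OsABA8OX1 made up 91.9%, 79.99% and 91.2% of the summed FPKM of the hydroxylase genes in mads61-3, against 99.9%, 97.9% and 95.95% in WT. That sum was 8.56, 10.1 and 10.4 FPKM in mads61-3, against 139, 60.5 and 59.6 FPKM in WT. The third hydroxylase gene, OsABA8OX3, had 3 counts in mads61-3 replicate 2 and 0 in the other libraries. OsABA8OX1 was the most abundant of these genes in all 6 libraries, also where its level was lowest.

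OsNCED1 (Os03g0645900, chromosome 3), a gene for the dioxygenase step of ABA synthesis, was rare in both groups. The deposited table lists it under this name, while other numbering of the rice family calls the same locus OsNCED3. Its counts were 26, 31 and 22 in mads61-3, against 26, 14 and 48 in WT, and its CPM were 0.758, 1.02 and 0.808 in mads61-3, against 1.14, 0.555 and 1.71 in WT. All mutant libraries lay inside the WT range. The log2 fold change was -0.39 (SE 0.52, edgeR, adjusted p = 0.765), and it turned to 0.03 when the library labelled WT replicate 3 was left out. FPKM and counts of OsNCED1 disagreed, most in mads61-3 replicate 1. The length that links them was 6752, 3720 and 3281 bases in mads61-3 replicates 1 to 3, against 2967 to 3055 bases in WT. For the other 7 genes it varied by at most 1.11-fold. The library mads61-3 replicate 1 held 0.113 FPKM, against 0.308 and 0.237 FPKM in mads61-3 replicates 2 and 3, although its CPM lay close to theirs.

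OsPP2C30 (Os03g0268600, chromosome 3) encodes a clade A phosphatase, the kind that holds ABA signalling back until receptors bind it. It had 0.641, 0.726 and 1.03 CPM in mads61-3, against 0.569, 0.951 and 1.495 CPM in WT, from 13 to 42 counts a library. The groups overlapped, with the lowest and the highest value both in WT. Its log2 fold change was -0.34 (SE 0.51, edgeR, adjusted p = 0.8), and it turned to 0.07 when the library labelled WT replicate 3 was left out. Per length it was a minor member of its clade, at 0.386% to 0.651% of the summed FPKM of 9 clade A genes in mads61-3 and 0.265% to 0.92% in WT.

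The transcription factor genes BZIP23 and BZIP46 encode ABF-type bZIP proteins, which bind ABA-response elements and are known in rice for drought tolerance. BZIP23 (Os02g0766700, chromosome 2) had 37.0, 45.8 and 38.0 CPM in mads61-3, against 137, 52.9 and 60.9 CPM in WT. All mutant libraries were lower, but the nearest WT library was only 1.16 times the highest of them, and WT replicate 1 again stood far above the others. The means were 40.3 ± 4.80 CPM in mads61-3 and 83.5 ± 46.2 CPM in WT (SD, n = 3 each). On the log2 scale the fitted change was -1.05 (SE 0.38, edgeR, adjusted p = 0.24). With WT replicate 1 left out it was -0.50.

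BZIP46 (Os06g0211200, chromosome 6) lay on the other side. Its counts were 304, 434 and 159 in mads61-3, against 16, 16 and 110 in WT, or 8.86, 14.3 and 5.84 CPM in mads61-3, against 0.7, 0.634 and 3.91 CPM in WT. WT replicates 1 and 2 were lowest, and the library labelled WT replicate 3 stood between them and the mutants, the lowest of which was 1.49 times as high. The means were 9.68 ± 4.30 CPM in mads61-3 and 1.75 ± 1.88 CPM in WT (SD, n = 3 each). On the log2 scale the fitted change was 2.46 (SE 0.79, edgeR, adjusted p = 0.19). It was called by DESeq2 (adjusted p = 0.019), where 8.48% of 29081 features were called, 3.85% higher and 4.63% lower. EdgeR called it with the library labelled WT replicate 3 left out (log2 3.85, adjusted p = 0.0255), where 2.76% of features were called, 0.745% higher and 2.02% lower. Over all alternatives the adjusted p ran from 0.019 to 0.455. BZIP46 was highest in mads61-3 replicate 2, the library with the highest sum of leaf genes, while replicate 1 was above replicate 3 in BZIP46 and below it in leaf genes. In WT, replicate 2 had the highest sum of leaf genes (15.9 FPKM) and the lowest BZIP46. The library labelled WT replicate 3 had the highest BZIP46 of the WT libraries at a sum of 4.41 FPKM. The part of leaf genes in this result was not tested.

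Set against each other within a library, BZIP23 FPKM were 3.35, 2.56 and 5.28 times those of BZIP46 in mads61-3, against 156, 73.6 and 12.4 times in WT. BZIP23 remained the more abundant of the pair per length in all 6 libraries. Of the summed FPKM of 10 ABF and ABI3 type genes, BZIP46 made up 4.13% to 8.31% in mads61-3 and 0.252% to 2.61% in WT, and BZIP23 20.7% to 21.8% in mads61-3 and 23.6% to 39.2% in WT. The 3 mutant values of each share lay outside the 3 WT values.

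LIP9 and OsJRL are response genes, whose transcripts other work has found to rise with ABA, salt or cold. LIP9 (Os02g0669100, chromosome 2), a dehydrin gene, had 283.5, 132 and 335 CPM in mads61-3, against 281, 140 and 143 CPM in WT. The lowest and the highest library were both mutants. Its log2 fold change was 0.41 (SE 0.44, edgeR, adjusted p = 0.699), and stayed positive with any 1 library left out, from 0.15 to 0.83. Per length it was the most abundant of the 8 genes in the group means, with 183 ± 67.7 FPKM in mads61-3 and 128 ± 39.0 FPKM in WT (SD, n = 3 each).

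OsJRL (Os01g0348900, chromosome 1) encodes a jacalin-related, mannose-binding lectin. It varied most of the 8 within each group, with 16.5, 55.9 and 77.4 CPM in mads61-3, against 50.1, 215 and 9.11 CPM in WT. WT libraries differed by 23.6-fold, a ratio that 3.72% of tested features reached, and mutant libraries by 4.68-fold, reached by 4.58%. The log2 fold change of -0.87 (SE 1.04, edgeR, adjusted p = 0.735) turned to 0.76 without WT replicate 2. The median feature differed by 1.44-fold between the highest and lowest mads61-3 library and by 2.02-fold in WT.

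By mean FPKM the 8 genes stood in the order LIP9, OsJRL, BZIP23, OsABA8OX1, BZIP46, OsABA8OX2, OsPP2C30 and OsNCED1 in mads61-3. In WT the order was LIP9, OsJRL, OsABA8OX1, BZIP23, OsABA8OX2, BZIP46, OsPP2C30 and OsNCED1, so the neighbours OsABA8OX1 and BZIP23 changed places, and so did BZIP46 and OsABA8OX2. OsABA8OX1 had 7.87 to 9.52 FPKM in mads61-3, below the 18.9 to 26.1 FPKM of BZIP23 there, and 57.2 to 139 FPKM in WT, above the 28.3 to 59.7 FPKM of BZIP23 in each library. Neighbours whose FPKM ranges overlapped were OsJRL and BZIP23, and OsABA8OX1 and BZIP46, in mads61-3. In WT they were LIP9 and OsJRL, OsJRL and OsABA8OX1, OsABA8OX1 and BZIP23, OsABA8OX2 and BZIP46, BZIP46 and OsPP2C30, and OsPP2C30 and OsNCED1.

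**Figure D2:**
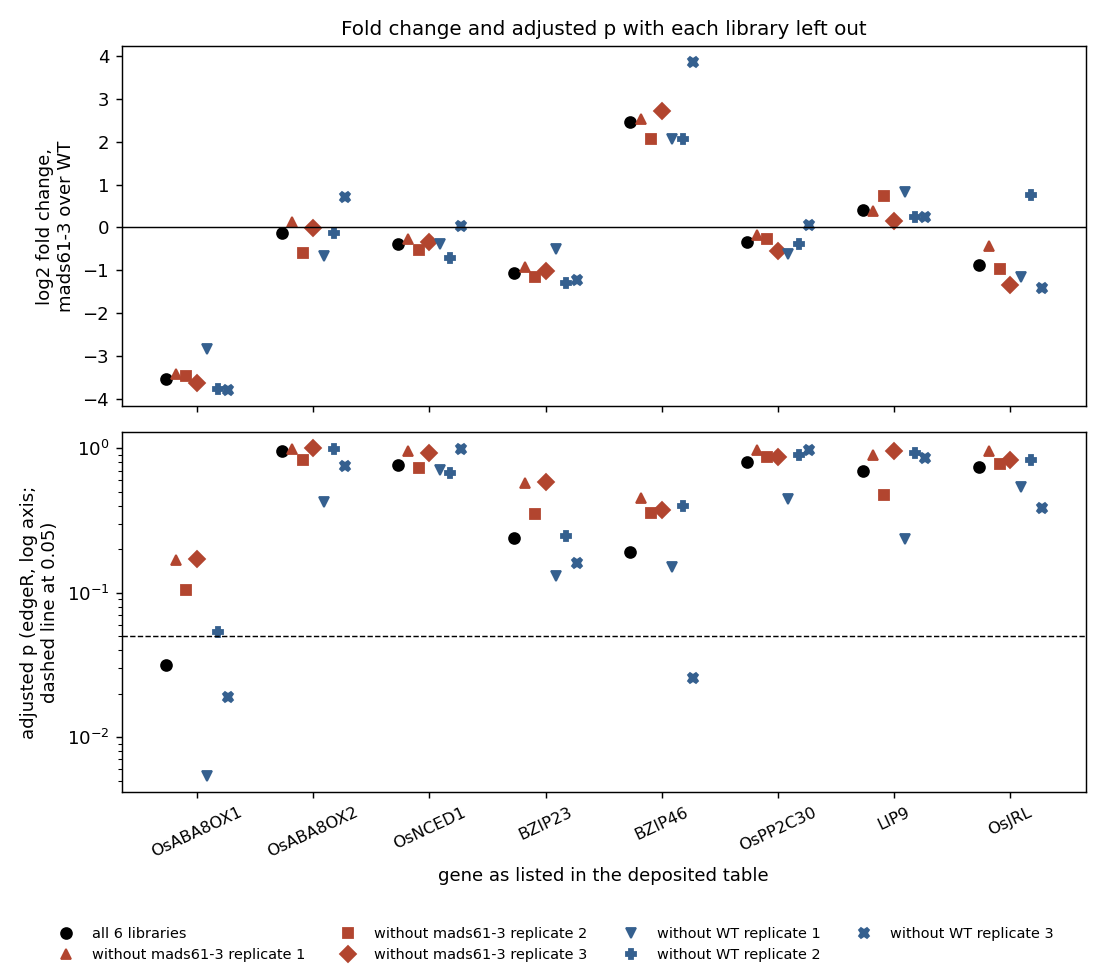
Log2 fold change (mads61-3 over WT, upper panel) and edgeR's adjusted p (lower panel, log axis) of the 8 genes with all 6 libraries and with each library left out. OsABA8OX1 keeps a log2 fold change between -3.79 and -2.83, and among these settings BZIP46 is below 0.05 only without the library labelled WT replicate 3.

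The wider pathway was described with 7 lists of 60 genes, to which the 8 genes belong. The lists were written with earlier results of these data known, so the shares of all features are given for scale only. Without the 8 genes, 45 were tested, of which edgeR called 1 higher and 2 lower and DESeq2 3 higher and 13 lower. Of all 53 tested genes 1 rose (SAPK9) and 3 fell (OsABA8OX1, DSM2 and SNAC1), where 1.25% of all features were called. By the unadjusted p, also at 0.05, 5 were higher and 17 lower, against 7.86% and 8.68% of all features. The groups did not overlap for 6 higher and 16 lower genes, against 11.4% and 11.3% of all features. The median log2 fold change was -0.14, against -0.04 for all features. DESeq2 called 4 higher and 14 lower, against 1040 and 1303 of the 25531 tested features. Without the library labelled WT replicate 3 edgeR called 7 of them, without WT replicate 2 it called 1 (SNAC1), and without mads61-3 replicate 1, 2 or 3 it called 0, with 19, 18 and 18 of the listed genes at an unadjusted p under 0.05. Over all features edgeR called 724 without the library labelled WT replicate 3, 107 without WT replicate 2, and 0, 14 and 0 without mads61-3 replicates 1 to 3, against 319 with all 6 libraries.

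**Figure D3:**
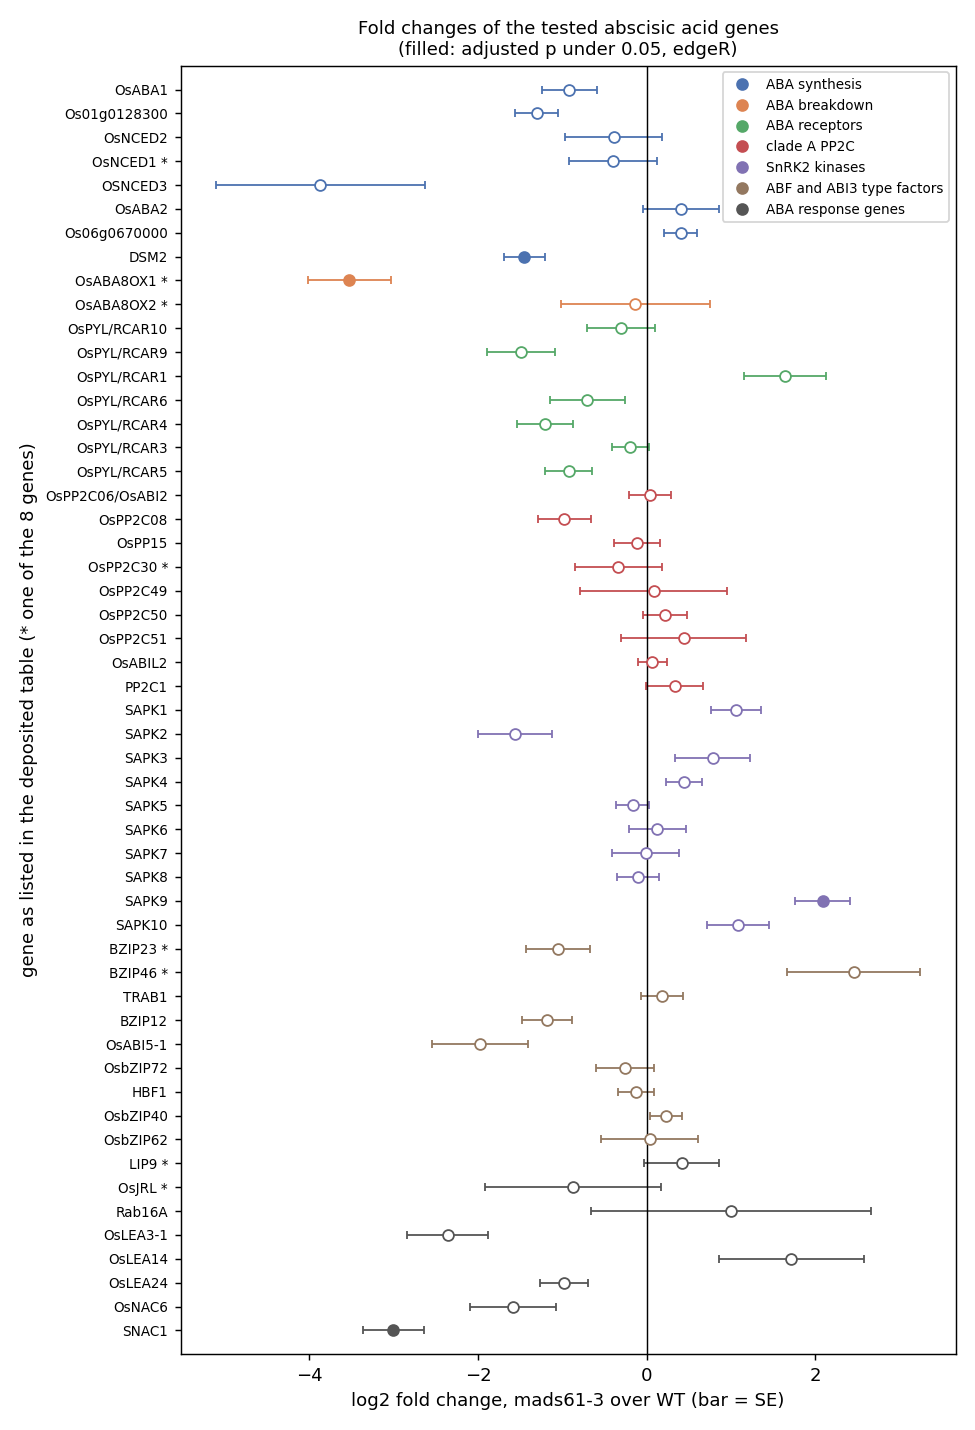
Log2 fold change (mads61-3 over WT, horizontal axis) with its SE for each tested gene of the 7 lists. The filled points, OsABA8OX1 at -3.53, SNAC1 at -3.004, DSM2 at -1.45 and SAPK9 at 2.09, are the 4 genes with an adjusted p under 0.05 in edgeR.

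In ABA synthesis edgeR called 1 of 8 genes lower and 0 higher, against 0.924% and 0.325% of all features. By the unadjusted p, also at 0.05, 0 were higher and 4 lower, against 7.86% and 8.68% of all features. The groups did not overlap for 1 higher and 3 lower genes, against 11.4% and 11.3% of all features. One of the lower genes, OsABA1, picked after its values were seen, was nearly tied, at 39.91 CPM in mads61-3 replicate 3 and 39.92 CPM in the library labelled WT replicate 3. DSM2, a carotene hydroxylase gene upstream of ABA, had 7.49, 7.03 and 7.78 CPM in mads61-3, against 24.3, 16.4 and 20.3 CPM in WT, a log2 fold change of -1.45 (SE 0.24, edgeR, adjusted p = 0.0471). This call was close to the threshold and was lost without any 1 mutant library (adjusted p of 0.228, 0.115 and 0.229 without mads61-3 replicates 1 to 3), without WT replicate 2 (0.0852), with no filter on low counts (0.0522) and in limma-voom (0.0564). OSNCED3, here the deposited symbol of Os07g0154100 and not of the OsNCED1 locus described above, is another dioxygenase gene. Picked after its values were seen, it had 0.7, 0.726 and 0.477 CPM in mads61-3, against 20.9, 0.317 and 6.94 CPM in WT. Its counts were 24, 22 and 13 in mads61-3, against 477, 8 and 195 in WT. WT replicate 2 lay below all mutants, and the gene's log2 change, -3.87 (SE 1.24), missed the threshold (edgeR, adjusted p = 0.189) and was -2.51 with WT replicate 1 left out. DESeq2 called it (adjusted p = 0.00424). Os01g0128300, picked in the same way, had 6.01, 6.31 and 4.85 CPM in mads61-3, against 12.2, 13.6 and 16.6 CPM in WT. Its log2 fold change was -1.305 (edgeR, adjusted p = 0.0647), and DESeq2 called it lower (adjusted p = 0.00014).

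Among 10 SnRK2 kinase genes SAPK9 rose and 0 fell, where edgeR called 0.325% of all features higher and 0.924% lower. SAPK9 (Os12g0586100) had 158, 165 and 138 CPM in mads61-3, against 22.8, 51.4 and 34.1 CPM in WT, so that the lowest mutant was 2.68 times the highest WT library. Its log2 fold change was 2.09 (SE 0.32, edgeR, adjusted p = 0.0416), lost without any 1 mutant library (0.192, 0.104 and 0.172 for replicates 1 to 3), or with WT replicate 2 (0.0518) or the library labelled WT replicate 3 (0.0543) left out. By the unadjusted p, also at 0.05, 3 of the 10 were higher and 1 was lower, against 7.86% and 8.68% of all features. SAPK1 and SAPK10, picked after their values were seen, were higher in every mads61-3 library than in every WT library (log2 1.06 and 1.08, edgeR, adjusted p of 0.145 and 0.204). DESeq2 called SAPK1 (adjusted p = 0.0274) but not SAPK10 (adjusted p = 0.0573). SAPK2, picked in the same way, had 44.5, 34.2 and 42.5 CPM in mads61-3, against 194, 56.2 and 107 CPM in WT (log2 -1.56, edgeR, adjusted p = 0.145). DESeq2 called SAPK2 lower (adjusted p = 0.0139). Its log2 fold change was -1.01 without WT replicate 1. Per length SAPK9 made up 17.97% to 25.6% of the summed SnRK2 FPKM in mads61-3 and 2.94% to 9.65% in WT. SAPK2 made up 6.16% to 6.43% in mads61-3 and 12.2% to 29.0% in WT. The summed FPKM of the 10 genes were 409 to 470 in mads61-3 and 317 to 378 in WT.

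SNAC1 (Os03g0815100), a stress NAC factor gene in the list of response genes, was the 1 of 8 tested there that fell, and 0 rose. Over all features edgeR called 0.924% lower and 0.325% higher. SNAC1 had 13.7, 16.1 and 22.0 CPM in mads61-3, against 200 (replicate 1), 93.5 and 122 CPM in WT, with the lowest WT library 4.24 times the highest mutant one. Its log2 fold change was -3.004 (SE 0.36, edgeR, adjusted p = 0.0221), lost without mads61-3 replicate 1, 2 or 3 (0.144, 0.0828 and 0.115). In the library labelled WT replicate 3 SNAC1, like OsABA8OX1, stood with the other WT libraries. The late embryogenesis abundant gene OsLEA3-1, picked after its values were seen, had 0.292, 0.396 and 0.294 CPM in mads61-3, against 1.40, 1.27 and 2.42 CPM in WT (log2 -2.36, edgeR, adjusted p = 0.0702). Its counts were 10, 12 and 8 in mads61-3, against 32, 32 and 68 in WT. OsNAC6, picked in the same way, had 93.7, 72.3 and 92.7 CPM in mads61-3, against 481, 159 and 135 CPM in WT (log2 -1.58, edgeR, adjusted p = 0.193), and its log2 fold change was -0.77 with WT replicate 1 left out. DESeq2 called both OsLEA3-1 and OsNAC6 lower (adjusted p of 0.00208 and 0.0299). LIP9, OsLEA14 and Rab16A were the 3 of the 8 with positive log2 fold changes, and none of the 3 passed in edgeR, at the adjusted or unadjusted p, or in DESeq2. OsLEA14 and Rab16A were picked after their values were seen. The log2 fold change of OsLEA14 was 1.72, and 0.54 without mads61-3 replicate 2, and Rab16A had no read in 3 of the 6 libraries.

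EdgeR called 0 of 7 tested PYL/RCAR receptor genes, 0 of 9 clade A phosphatase genes and 0 of 9 ABF and ABI3 type genes. It called 1.25% of all features. By the unadjusted p, also at 0.05, there were 1 higher and 3 lower receptors, 0 higher and 1 lower phosphatase, and 1 higher and 3 lower factors, where 16.5% of all features passed. DESeq2 called 4 receptors, 1 phosphatase and 2 factors, and over the 25531 tested features 1040 higher and 1303 lower. Limma-voom, which called 0.885% of all features (0.247% higher and 0.638% lower), called 0 of each. Of the receptors, OsPYL/RCAR1 had 3.97, 1.55 and 3.74 CPM in mads61-3, against 1.27, 0.911 and 0.783 CPM in WT (log2 1.64, edgeR, adjusted p = 0.16). OsPYL/RCAR9 had 1.25, 0.957 and 1.18 CPM in mads61-3, against 3.98, 3.49 and 2.06 CPM in WT (log2 -1.49, edgeR, adjusted p = 0.129). DESeq2 called OsPYL/RCAR1 higher and OsPYL/RCAR9 lower (adjusted p of 0.0323 and 0.015). The receptor gene with the highest mean FPKM over the 6 libraries, OsPYL/RCAR3, had 46.4 FPKM in mads61-3 and 49.7 FPKM in WT on average, with overlapping groups.

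The phosphatase list had a median log2 fold change of 0.07, and its most abundant member, OsPP2C06/OsABI2, had 41.6, 52.5 and 36.8 FPKM in mads61-3, against 42.5, 30.5 and 45.1 FPKM in WT. OsPP2C08 differed most, with 3.18, 3.20 and 3.30 CPM in mads61-3, against 7.79, 4.63 and 6.65 CPM in WT (log2 -0.98, edgeR, adjusted p = 0.187). DESeq2 called OsPP2C08 lower (adjusted p = 0.0403). OsPP2C51 had 3.30, 4.49 and 8.22 CPM in mads61-3, against 7.62, 3.33 and 0.89 CPM in WT, with overlapping groups. Its log2 fold change of 0.44 had no stable sign, being 1.34 without WT replicate 1, -0.01 without mads61-3 replicate 3 and -0.04 without the library labelled WT replicate 3. Of the factors, BZIP12 had 20.1, 22.0 and 20.5 CPM in mads61-3, against 64.0, 48.4 and 29.9 CPM in WT (log2 -1.19, SE 0.30, edgeR, adjusted p = 0.113). DESeq2 called BZIP12 lower (adjusted p = 0.00858). EdgeR called it without the library labelled WT replicate 3 (log2 -1.43, adjusted p = 0.0252). The receptors OsPYL/RCAR4 and OsPYL/RCAR5, picked after their values were seen, were called lower under that setting too, with adjusted p of 0.0443 and 0.0465 in edgeR. With all libraries kept, DESeq2 called both lower (adjusted p of 0.0206 and 0.0396).

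**Figure D4:**
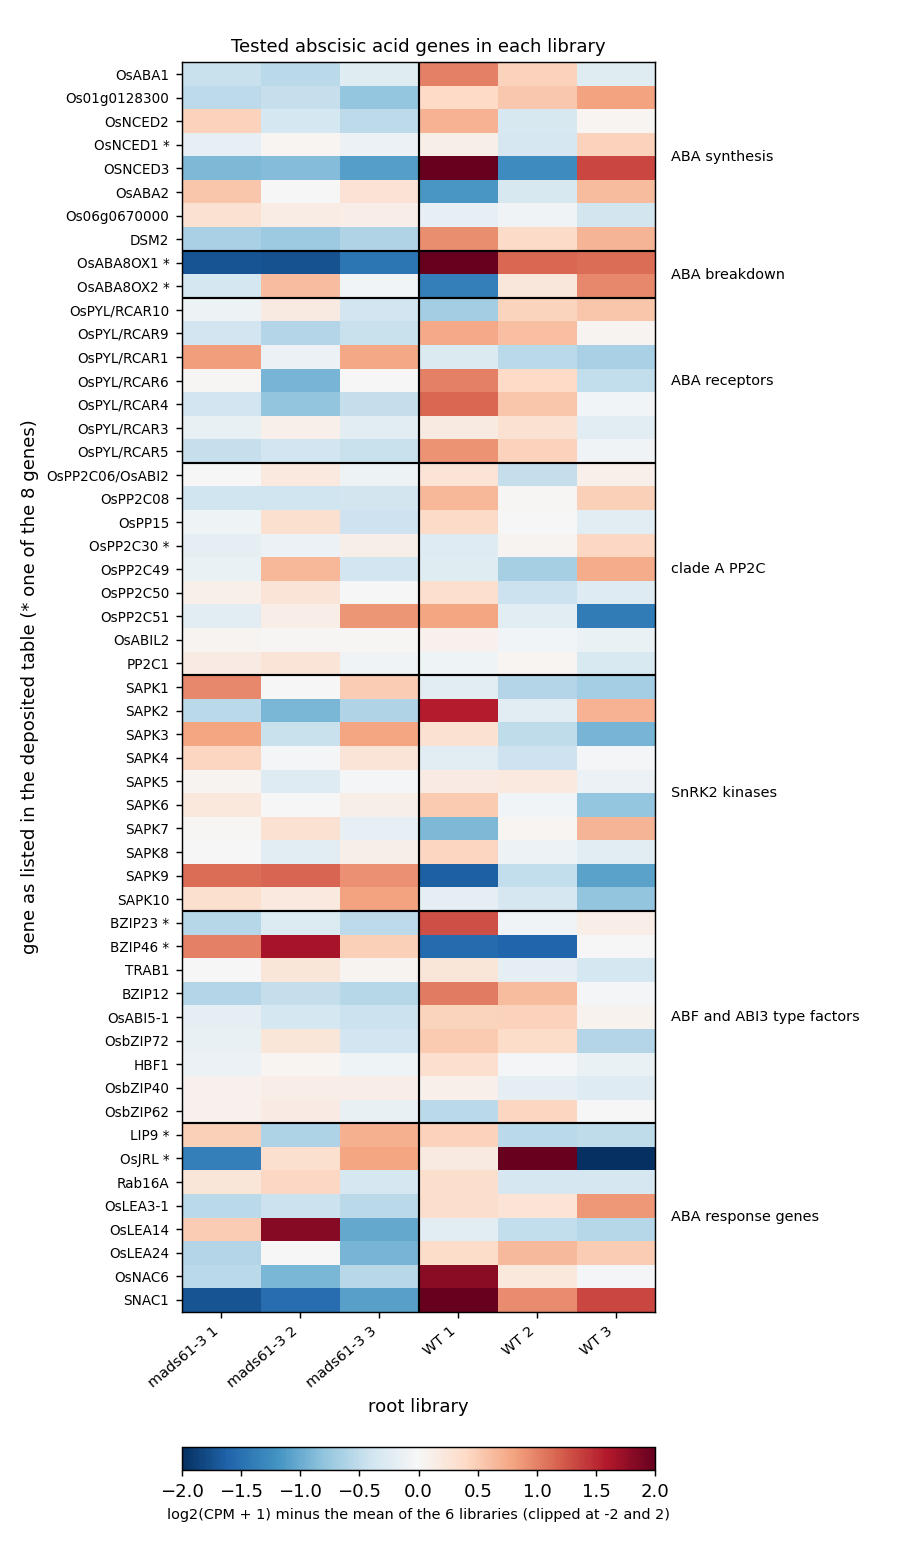
Deviation of log2(CPM + 1) from the mean of the 6 libraries for every tested gene of the 7 lists (rows) in each root library (columns, mads61-3 left of WT), red for above and blue for below that mean. OsABA8OX1 and SNAC1 are blue in the 3 mutants and red in the 3 WT libraries, SAPK9 shows the reverse, and OsJRL changes colour within both groups.

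The genes most like each of these across the 6 libraries were taken from 5572 named genes that averaged 5 CPM or more, by the root mean square difference of log2(CPM + 1) after each gene's own mean was taken off. All comparisons use the same 6 libraries, so the likeness is a description. For OsABA8OX1 they were the exocyst subunit gene OsEXO70FX14 (0.19) and the calmodulin-like gene OsCML16 (0.21), both called lower with log2 fold changes of -4.11 and -4.41 (edgeR, adjusted p of 0.0184 and 0.0186). For BZIP23 they were the heat shock factor gene HSFB2A (0.11) and OsANT3 (0.12), and for BZIP46 NPP1 (0.29) and OsCYL4 (0.33). LIP9 lay nearest to the Argonaute gene OsAGO18 (0.11) and OsAsr1 (0.14), and OsABA8OX2 to OsCR4 (0.06) and OsbZIP36 (0.09). OsJRL had the poorest matches, RBBI2-3 (0.77) and OsCCR1 (0.91). OsNCED1 and OsPP2C30 were below the minimum of 1 CPM for this search.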

How the data were processed

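Root RNA was sequenced from 3 mads61-3 and 3 WT samples. The labels give groups and replicate numbers but not separate tanks or plants, so the p-values speak of the spread among these libraries alone, and that spread may be technical. The authors deposited whole-number read counts per feature, not normalised, and FPKM, which the authors scaled to feature length and depth. Per the submitters' processing notes, the tools were HISAT2 2.0.5, SAMtools 0.1.18, StringTie 1.3.3, CASAVA 1.8.2, Picard 1.41 and FastQC 0.11.9. Those notes name a human genome build, while the features are rice loci. Rice build, annotation, read counter and strand setting: not given in the sources used here. Coordinates are therefore left out, chromosomes are read from locus identifiers, and a gene's reads cannot be separated from those of an antisense or overlapping partner.

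Counts were tested with edgeR 4.0.16 in R 4.3.3 (quasi-likelihood F-test, two-sided, robust, TMM scaling, default filter with a minimum count of 10 and a minimum total of 15, group as the only term), with Benjamini-Hochberg adjustment over 25531 features and a call at an adjusted p under 0.05. Log2 fold changes are mads61-3 over WT, each SE is the size of the fold change over the square root of F, and CPM use TMM library sizes. DESeq2 1.42.0, limma 3.58.1 (voom, and log2(FPKM + 1) or log2(FPKM + 0.1)), RLE scaling, no filter, a replicate block and leaving out each library were alternatives. The code was tested on simulated counts. The depth floor of 3 counts covers counting error only.

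The 8 genes, the lists and the tests were chosen with earlier results of these data known. Lists held 66 pathway entries written from memory by locus, of which 4 loci were not analysed here and 2 were left out because the deposited symbol names another gene. From each list the text names called genes or, where none was called, the 2 largest changes at a mean of at least 1 CPM and the most abundant gene, and other genes are marked as picked after their values were seen. The dehydrin genes Rab16A and RAB16B are similar copies, so the split of their reads is uncertain.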

Additional observations from a re-analysis of the deposited data

How the results depend on the processing

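OsABA8OX1, BZIP23, BZIP46 and LIP9 kept the sign of their log2 fold change under all 13 alternatives, and the other 4 genes, none of them called, did not. Signs turned for OsABA8OX2 with log2(FPKM + 1) (0.054), log2(FPKM + 0.1) (0.41), limma-voom (0.42), the replicate block (0.43), without mads61-3 replicate 1 (0.12) and without the library labelled WT replicate 3 (0.72), for OsNCED1 (0.032) and OsPP2C30 (0.066) without that library, and for OsJRL without WT replicate 2 (0.76). With 1 library left out, log2 fold changes ran from -3.79 to -2.83 for OsABA8OX1, from 2.06 to 3.85 for BZIP46, from -0.67 to 0.72 for OsABA8OX2, from -0.72 to 0.03 for OsNCED1, from -0.62 to 0.07 for OsPP2C30 and from -1.41 to 0.76 for OsJRL. Calls among the 8 genes ran from 0 to 2, and over all features from 0 to 724. The 0 calls without mads61-3 replicate 1 or 3 came with 2641 and 2608 features at an unadjusted p under 0.05 in edgeR; DESeq2 and limma were fitted to all 6 libraries only. Over all features DESeq2 called 2466, log2(FPKM + 1) 481, log2(FPKM + 0.1) 559 and the replicate block 81, against 319. The share of calls that were lower in mads61-3 was not alike across these, as edgeR had 236 lower and 83 higher while DESeq2 had 1345 lower and 1121 higher. DESeq2 called 2 of the 8 genes, with BZIP46 at 2.46. In the lists it called 3 synthesis genes, 1 breakdown gene, 4 receptors, 1 phosphatase, 3 kinases, 2 factors and 4 response genes, 18 in all. Both limma-voom and edgeR with no low-count filter called 0 in synthesis, where 3 and 4 passed by the unadjusted p. Leaving out 1 library gave 0 to 2 calls in synthesis, receptors and factors, 0 to 1 in breakdown, kinases and response genes, and 0 to 7 over the lists.

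Replicate numbers are shared by the groups, and the labels do not say whether they pair samples. Deviations of same-numbered libraries from their group means had r = 0.146, 0.264 and -0.236 for numbers 1 to 3. Differently numbered libraries had r from -0.338 to 0.331. These r were taken across 25531 features, which are not independent, and with 3 libraries a group they cannot decide whether samples were paired. With the replicate block OsABA8OX1 had a log2 fold change of -3.33 (edgeR, adjusted p = 0.0619), and 0 of the 8 genes and 0 of the listed genes were called, with 2 and 18 of them and 3512 of all features at an unadjusted p under 0.05. The causes of these shifts were not tested. Depth limits OsNCED1 and OsPP2C30, which had 13 to 48 counts a library. It also limits OsABA8OX2, with 7 counts in WT replicate 1, and BZIP46, with 16 counts in each of WT replicates 1 and 2.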

Other observations

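Of the 60 list genes 7 had too few counts to be tested. The receptor gene OsPYL/RCAR7 had 0 counts in every library, OsPYL12 had 3, 4 and 0 counts in mads61-3 and 0 in every WT library, and Vp1_ had 2 counts, in WT replicate 1. OsLEA22 had 5, 9 and 0 counts in mads61-3, against 9, 7 and 13 in WT, and OsABA8OX3 is described above. Em_, a gene of late embryo development, had 2, 8 and 0 counts in mads61-3, against 3, 0 and 0 in WT. RAB16B had 3, 5 and 0 counts in mads61-3, against 9, 0 and 0 in WT, and its tested neighbour Rab16A had 17, 21 and 0 counts in mads61-3, against 14, 0 and 0 in WT. Em_, RAB16B and Rab16A, grouped after their values were seen, were thus read in the same 3 libraries, mads61-3 replicates 1 and 2 and WT replicate 1, and had 0 counts in the other 3. Reads of the similar copies Rab16A and RAB16B may be split between them, and no test was made.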
